A study of Homo sapiens with 12 samples.

Results

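The set comprises 10 p53 target genes whose products act in stress signalling, metabolism or as secreted factors, followed here across A549 cells with and without RNF113A depletion and Cisplatin. These genes are GDF15, TP53INP1, SESN1, FDXR, RRM2B, TP53I3, ZMAT3, AEN, PHLDA3 and SPATA18. They were taken by gene symbol from the 26334 genes of the count table, and all 10 passed the filter on low counts that kept 15352 genes. A549 is a lung adenocarcinoma cell line. Its cells were infected with a lentivirus that carried either the construct labelled shControl or the construct labelled shRNF113A, directed at RNF113A, and selected with 1 µg/ml puromycin for 4 days. They were left untreated or exposed to Cisplatin, by the labels at 25 µg/ml for 20 h (the study's legends for other Cisplatin experiments give the dose in another unit), with 3 libraries for each of the 4 conditions. The labels do not say how many hairpins shRNF113A stands for, and effects of a hairpin other than on RNF113A cannot be told apart from depletion here.

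The p53 protein is a transcription factor that is stabilised after DNA damage and binds a response element in or near its target genes. Besides cell cycle arrest and apoptosis, its program covers the supply of deoxynucleotides, redox enzymes, brakes on growth signalling, and signals sent to other tissues. Cisplatin forms platinum adducts and crosslinks on DNA and is a classical trigger of this response. RNF113A is a component of the spliceosome, which removes introns from pre-mRNA.

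The response element consists of 2 decamers, each with a central C, A or T, A or T, G. Sites were searched in hg19, within 2000 bases of every annotated transcript start, allowing 2 mismatches to the full p53 consensus site with both central motifs intact and no spacer. The search is given for 6 of the 10 genes, ZMAT3, AEN, SPATA18, TP53I3, SESN1 and FDXR, each with a promoter entry of RefSeq in the reference tables (build GRCh38.p14). A match was found for 3 of these 6, against 3.09% of 19550 protein-coding genes (605 genes). In the shorter RefSeq promoters, read around 1 start per entry, only AEN's held a match, 1 of the 6 genes. Among all 35116 promoters 0.157% held one. That share is per entry and not per gene, and ZMAT3, SESN1 and FDXR have more than 1 entry each. The 3 matches are given with the central motifs in capitals and the strand of the gene throughout.
ZMAT3, chr3:178787936-178788035, minus strand, in an intron, 0 mismatches, 1369 bases downstream of the nearest transcript start: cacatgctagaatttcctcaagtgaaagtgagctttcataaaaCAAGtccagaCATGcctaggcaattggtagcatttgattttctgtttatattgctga
AEN, chr15:89164532-89164561, plus strand, in an exon, 2 mismatches, 20 bases downstream: gagccgggCTTGcccgggCATGtgggagct
SPATA18, chr4:52918083-52918182, plus strand, in an intron, 2 mismatches, 551 bases downstream: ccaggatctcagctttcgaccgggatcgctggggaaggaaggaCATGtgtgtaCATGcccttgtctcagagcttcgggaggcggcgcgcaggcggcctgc
ZMAT3 held the only perfect match of the 3, a class found in 0.0716% of all genes searched. Letters that match are a description of the sequence and do not show that p53 was bound there, and for TP53I3, SESN1 and FDXR, searched without a match, the result says only that these letters are not in this window.

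The libraries held 33859097 to 56071514 read pairs, of which 26220526 to 45721152 were assigned to genes. RNF113A itself, on chromosome X from 119004497 to 119005791 of hg19, was examined first. In CPM (read pair counts scaled to a common library size with the TMM method of edgeR) it stood at 20.3, 19.5 and 19.8 in untreated control cells and at 15.3, 15.8 and 16.8 in untreated shRNF113A cells. In Cisplatin-treated cells the values were 31.5, 28.9 and 27.7 in control cells and 25.8, 24.3 and 29.9 in shRNF113A cells, and these ranges overlap. The lower level passed the test in untreated cells (log2 fold change −0.31, SE 0.09, adjusted p = 0.0247 by edgeR's quasi-likelihood test) and did not in Cisplatin-treated cells (−0.14, SE 0.09, adjusted p = 0.233). In Cisplatin-treated cells the arms are therefore called by their labels, shRNF113A and control. The epithelial and redox markers KRT8, KRT18, KRT7, ALDH1A1, AKR1B10, AKR1C1 and NQO1 of A549 cells were present in every library, at 102 CPM or more, and CDKN2A, which this line has lost, had 0 read pairs. Of 9 markers of other cell types, PTPRC, CD3E, PECAM1, CDH5, COL3A1, DCN and SFTPC stayed at or below 0.599 CPM, while CD68 ranged from 27.9 to 74.0 CPM and COL1A1 from 3.32 to 34.9 CPM. Replicate 2 of the control cells stood apart from replicates 1 and 3 in both the untreated and the Cisplatin-treated condition, and values without it are given for part of the results.

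Upon Cisplatin in control cells all 10 genes rose, from 3.40-fold for AEN to 20.2-fold for TP53INP1. This count is read against 9.16% of the 15352 tested genes that were called higher in the same comparison, a call being an adjusted p under 0.05 and a change of at least 2-fold. The median log2 fold change of the 10 genes was 2.75, and that of all tested genes was −0.0053. In shRNF113A cells all 10 genes rose as well, with 11.6% of all tested genes called higher, a median of 1.94 and a range of 1.61 to 3.70. The groups did not overlap for any member in either comparison. The share of all tested genes without overlap was not counted, so the lack of overlap is not read as a trait of the members. In bulk RNA, fewer cells that express a gene and less RNA per cell cannot be told apart.

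**Figure D1:**
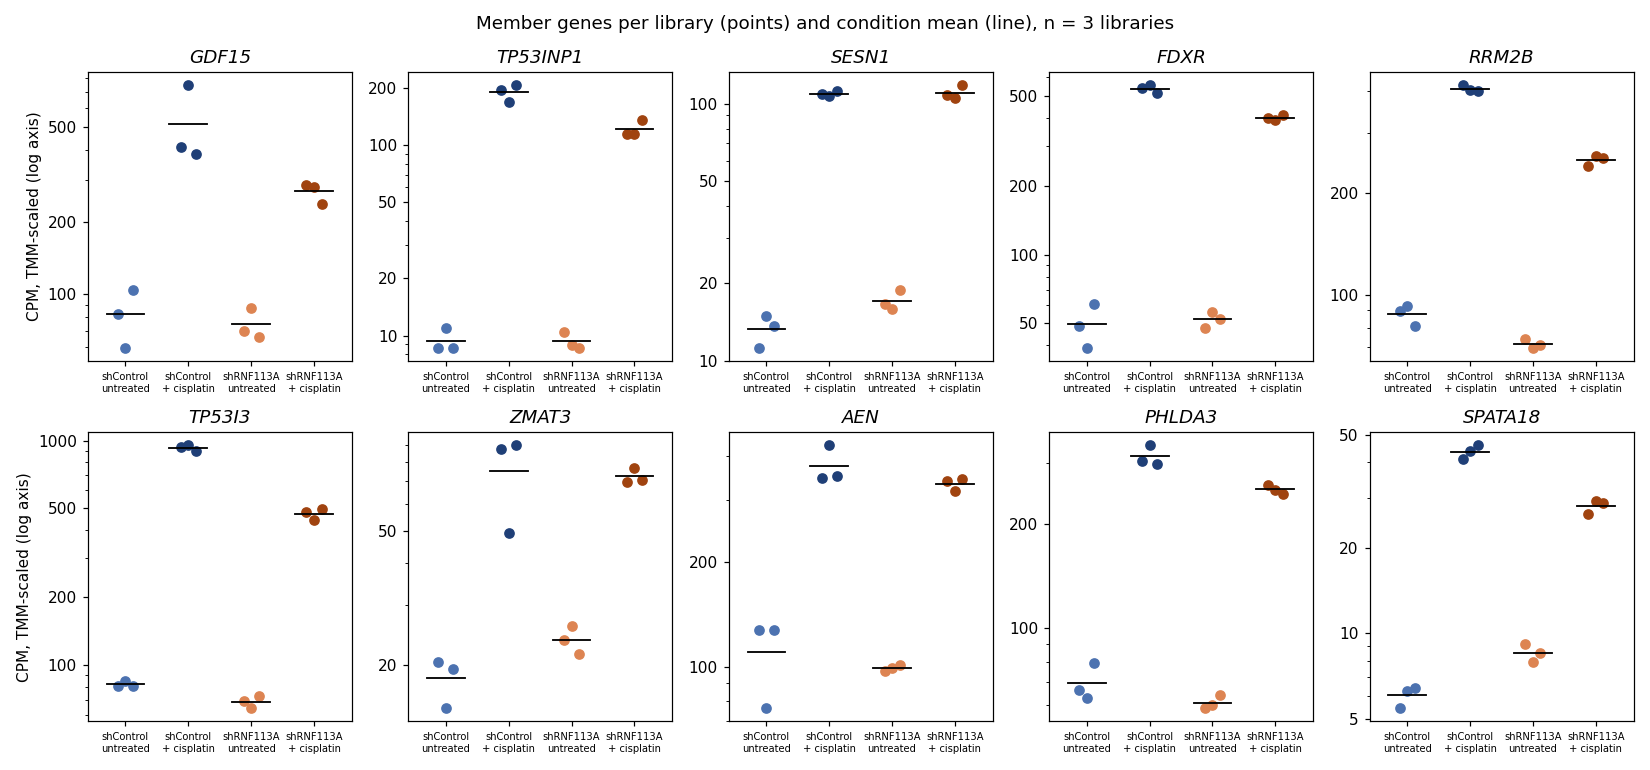
CPM of each of the 10 genes (log axis) in the 12 libraries, with 3 points and a line at the mean for each condition. In every panel the Cisplatin-treated libraries lie above the untreated ones, and for TP53I3 the treated shRNF113A cells (444 to 495 CPM) lie below the treated control cells (899 to 954 CPM).

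GDF15, a secreted member of the TGF-β superfamily that signals stress to the brainstem, lies on chromosome 19 from 18485541 to 18499986. It had 83.1, 59.6 and 104.5 CPM in untreated control cells and 413, 746 and 383 CPM with Cisplatin. In shRNF113A cells it had 70.5, 87.8 and 66.4 CPM untreated and 286, 281 and 239 CPM with Cisplatin. Replicate 2 of the treated control cells was the highest of all, and its untreated counterpart the lowest. The Cisplatin log2 fold change was 2.64 (SE 0.26) in control cells and 1.84 (SE 0.25) in shRNF113A cells. Without replicate 2 of both control conditions, a choice made after the data were seen, the change in control cells was 2.09.

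TP53INP1 and ZMAT3 feed back on p53 and on gene expression. TP53INP1 (chromosome 8, 95938200 to 95961639) assists phosphorylation of p53 and takes part in autophagy. It had 8.60, 10.9 and 8.64 CPM in untreated control cells and 196, 169 and 207 CPM with Cisplatin, the largest fold of the 10 genes (log2 4.34, SE 0.13). In shRNF113A cells it went from 10.4, 8.95 and 8.64 CPM to 114, 114 and 136 CPM (log2 3.70, SE 0.13). The untreated groups overlapped, and the treated groups did not overlap. The whole gene lies inside NDUFAF6 on the opposite strand, with 258 bases of exon overlap.

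ZMAT3 (chromosome 3, 178735011 to 178790067) is a zinc finger protein that binds RNA and is induced by p53. Its untreated levels were 20.3, 14.9 and 19.5 CPM in control cells and 23.7, 26.0 and 21.5 CPM in shRNF113A cells. With Cisplatin they were 87.2, 49.1 and 89.6 CPM in control cells and 69.7, 76.8 and 70.8 CPM in shRNF113A cells. Replicate 2 of the control cells was the lowest of its group in both conditions, and without it the treated shRNF113A cells lay below both remaining control libraries.

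SESN1, FDXR, TP53I3 and RRM2B act in metabolism. SESN1 (chromosome 6, 109307640 to 109416022) is a sestrin, which restrains the growth kinase complex mTORC1 in response to leucine shortage and stress. It had 11.2, 14.9 and 13.6 CPM in untreated control cells, 109, 107 and 112 CPM with Cisplatin, and 16.7, 15.9 and 18.9 CPM in untreated shRNF113A cells. Treated shRNF113A cells had 108, 105 and 118 CPM, within reach of the treated control cells.

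FDXR (chromosome 17, 72858619 to 72869156) is the mitochondrial reductase that passes electrons from NADPH to ferredoxins for steroid and iron-sulfur cluster synthesis. It went from 48.5, 38.9 and 60.7 CPM to 537, 556 and 513 CPM in control cells (log2 3.44, SE 0.14). In shRNF113A cells it went from 47.7, 55.9 and 52.1 CPM to 398, 390 and 411 CPM (log2 2.95, SE 0.14). All 3 treated shRNF113A libraries were below all 3 treated control libraries.

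TP53I3 (chromosome 2, 24300303 to 24308731) is a quinone oxidoreductase linked to oxidative stress. It had 80.8, 84.6 and 80.8 CPM in untreated control cells and 933, 954 and 899 CPM with Cisplatin (log2 3.50, SE 0.08). In shRNF113A cells it had 69.0, 64.1 and 72.8 CPM untreated and 481, 444 and 495 CPM with Cisplatin (log2 2.79, SE 0.08). The shRNF113A cells were lower without overlap in both conditions. The whole gene lies inside FAM228B on the opposite strand, and the stranded counts were used, as for every gene.

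RRM2B (chromosome 8, 103216730 to 103251346) codes for the p53-induced small subunit of ribonucleotide reductase, which makes deoxynucleotides for repair outside S phase. It went from 89.5, 93.0 and 81.1 CPM to 416, 402 and 398 CPM in control cells. In shRNF113A cells it went from 74.0, 69.7 and 71.1 CPM to 239, 257 and 254 CPM. The shRNF113A cells were lower without overlap in both conditions.

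PHLDA3, AEN and SPATA18 act on survival. PHLDA3 (chromosome 1, 201434620 to 201438365) competes with the kinase AKT for membrane lipids. It went from 66.6, 62.8 and 79.6 CPM to 304, 337 and 298 CPM in control cells and from 58.8, 59.9 and 64.3 CPM to 260, 251 and 244 CPM in shRNF113A cells. AEN (chromosome 15, 89164527 to 89175513) is a nuclease that enhances apoptosis. It went from 128, 76.3 and 128 CPM to 347, 430 and 352 CPM in control cells, where replicate 2 was the lowest untreated and the highest treated library, and from 97.5, 99.8 and 102 CPM to 340, 319 and 344 CPM in shRNF113A cells.

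SPATA18 (chromosome 4, 52917497 to 52963458), also called Mieap, serves mitochondrial quality control. It stood at 5.44, 6.27 and 6.44 CPM in untreated control cells and 9.19, 7.93 and 8.52 CPM in untreated shRNF113A cells. With Cisplatin the order of the arms turned, to 41.3, 43.9 and 46.0 CPM in control cells against 26.4, 29.3 and 28.8 CPM in shRNF113A cells. Neither pair of groups overlapped.

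**Figure D2:**
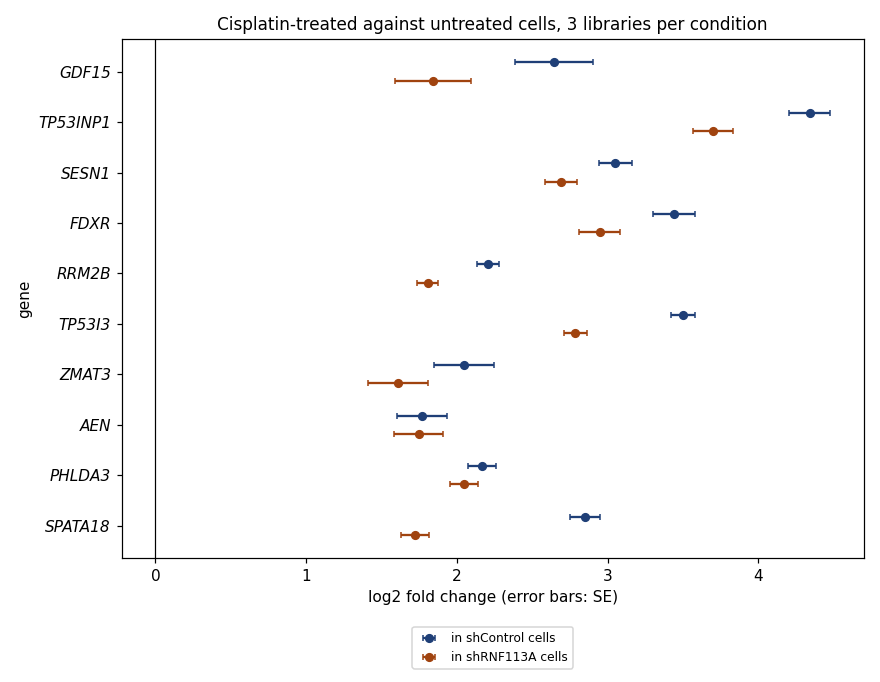
Log2 fold change upon Cisplatin (points, with SE as error bars) for the 10 genes in shControl and in shRNF113A cells, 3 libraries per condition. All points lie right of 0, from 1.61 (ZMAT3 in shRNF113A cells) to 4.34 (TP53INP1 in shControl cells), and AEN has nearly the same value in both arms (1.77 and 1.75).

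Per length of exon, in RPKM (exonic reads per kilobase of exon, scaled like the CPM), the order of the members changed with treatment. In untreated control cells GDF15 (41.0 ± 11.1, SD, n = 3), TP53I3 (38.2 ± 1.24), PHLDA3 (37.4 ± 5.42) and AEN (31.9 ± 8.49) were highest and could not be ordered within their spread. FDXR (20.3 ± 4.56) and RRM2B (17.0 ± 1.19) followed, and SESN1, ZMAT3, TP53INP1 and SPATA18 lay between 3.30 and 1.34 RPKM. In treated control cells TP53I3 led at 432 ± 13.7 RPKM, followed by GDF15 (257 ± 101) and FDXR (219 ± 10.9), which did not differ beyond their spread. TP53INP1 moved from the ninth to the seventh place at 33.5 ± 3.40 RPKM. In treated shRNF113A cells TP53I3 led again at 219 ± 12.4 RPKM, FDXR (153 ± 5.10) stood second, and GDF15 (134 ± 12.97) and PHLDA3 (133 ± 4.66) were level.

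Depletion in untreated cells gave no call at 2-fold for the 10 genes, where 8.66% of all tested genes were called in either direction. By the adjusted p alone 4 genes passed. SPATA18 was higher (log2 0.50, SE 0.10, adjusted p = 0.00283 by edgeR's quasi-likelihood test), as was SESN1 (0.37, SE 0.11, adjusted p = 0.0202). RRM2B was lower (−0.30, SE 0.07, adjusted p = 0.0073), as was TP53I3 (−0.26, SE 0.07, adjusted p = 0.0185). Among all tested genes 12.8% were higher and 14.6% lower by this criterion. None of the 4 passed when the test was restricted to these 6 libraries with a replicate block, and 8 genes passed without replicate 2 of both control conditions.

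In Cisplatin-treated cells the comparison of shRNF113A with control cells also gave no call at 2-fold, where 12.3% of all tested genes were called, but 7 of the 10 genes were lower in shRNF113A cells by the adjusted p alone. By that criterion 21.8% of all tested genes were lower. The difference was −0.97 on the log2 scale for TP53I3 (SE 0.07, adjusted p = 2.6e-06 by edgeR's quasi-likelihood test) and −0.94 for GDF15 (SE 0.25, adjusted p = 0.00919). RRM2B (−0.70, adjusted p = 2.2e-05), TP53INP1 (−0.65, adjusted p = 8.9e-04) and SPATA18 (−0.63, adjusted p = 2.4e-04) followed in edgeR's quasi-likelihood test. FDXR (−0.42, SE 0.12, adjusted p = 0.0174) and PHLDA3 (−0.32, SE 0.09, adjusted p = 0.0135) had smaller differences in edgeR's quasi-likelihood test. SESN1 (0.01, SE 0.10), ZMAT3 (−0.06, SE 0.19) and AEN (−0.17, SE 0.16) did not pass, and the SESN1 value turned below 0 under some other settings.

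Several measures moved with the treated shRNF113A libraries. Intronic reads made up 7.09 to 7.39% of their genic reads, against 1.82 to 4.41% in treated control cells. They held 33859097 to 39414380 read pairs, against 44841726 to 56071514. The summed level of the 9 markers of other cell types was 63.7 to 81.5 CPM, against 37.8 to 44.7 CPM. This sum rests on CD68 and COL1A1, since the other markers stayed at or below 0.599 CPM in every library. The part of these measures in the lower levels was not tested. TP53I3 and GDF15 lay close to the 2-fold limit, and TP53I3 was called with DESeq2 or its size factors. When single libraries were left out, 0 to 2 members were called: GDF15 and TP53I3 without treated control replicate 1 or 3 or without treated shRNF113A replicate 1, GDF15 without treated shRNF113A replicate 2, and TP53I3 without treated shRNF113A replicate 3. Without replicate 2 of both control conditions the log2 fold change of GDF15 was −0.57.

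The interaction term tests whether the Cisplatin change differs between shRNF113A and control cells. It was below 0 for all 10 genes (for AEN and PHLDA3 not without control replicate 2), with a median of −0.47 against 0.0014 for all tested genes, which repeats in one value the comparisons above, since these share their libraries. SPATA18 was called, with a Cisplatin log2 fold change of 1.72 in shRNF113A cells and 2.85 in control cells (difference −1.13, SE 0.13, adjusted p = 0.0046 by edgeR's quasi-likelihood test), where 1.28% of all tested genes were called. TP53I3 (−0.71, SE 0.10, adjusted p = 0.00856) and RRM2B (−0.40, SE 0.10, adjusted p = 0.0376) passed the adjusted p in edgeR's quasi-likelihood test, where 2.27% of all tested genes were lower. SPATA18 and TP53I3 passed in each of 12 fits that left out 1 library. RRM2B passed in 4 of the 12 and had an adjusted p of up to 0.112, and of 0.05 with a replicate block. TP53INP1 did not pass (−0.64, SE 0.17, adjusted p = 0.0551 by edgeR's quasi-likelihood test). It passed with unstranded counts (adjusted p = 0.0461), with DESeq2 size factors (0.0442), without the filter on low counts (0.048) in edgeR's quasi-likelihood test, and with DESeq2 (0.00708). GDF15 did not pass either (−0.80, SE 0.35, adjusted p = 0.204 by edgeR's quasi-likelihood test), and its value was −0.47 without treated control replicate 2 and −0.25 without replicate 2 of both control conditions.

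Control replicate 2 weighed on the interaction of other members. Without untreated control replicate 2, or without treated control replicate 2, 5 members passed. Without both, TP53INP1, SESN1, RRM2B, TP53I3, ZMAT3 and SPATA18 passed with values below 0, and AEN passed with a value above 0 (log2 0.29, adjusted p = 0.0312 by edgeR's quasi-likelihood test). The value of PHLDA3 was then 0.0014.

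**Figure D3:**
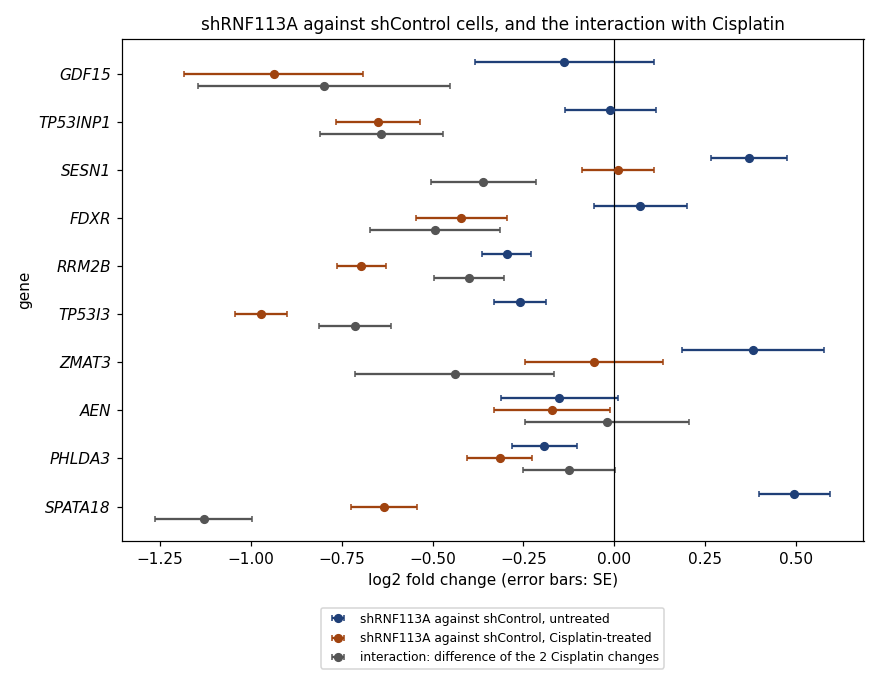
Log2 fold change of shRNF113A against shControl cells, untreated and Cisplatin-treated, and the interaction (points, with SE as error bars) for the 10 genes, 3 libraries per condition. The interaction lies left of 0 for all 10 genes, with SPATA18 at −1.13 and AEN at −0.02 (AEN and PHLDA3 were above 0 without control replicate 2). In untreated cells SPATA18, ZMAT3, SESN1 and FDXR lie right of 0, FDXR by less than its SE.

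The surroundings of these 10 genes were given by 40 other p53 targets, listed with earlier results in view. Upon Cisplatin in control cells 35 of the 40 were called higher and 0 lower, against 9.16% of all tested genes called higher, and the median of the list was 1.93 on the log2 scale. In shRNF113A cells 34 were called higher and 0 lower, against 11.6%, with a median of 1.79. The largest rises in control cells were those of BTG2 (log2 4.42, SE 0.16), an antiproliferative transcription cofactor, and CDKN1A (4.37, SE 0.18), the p21 inhibitor of cyclin-dependent kinases. In shRNF113A cells they were those of BTG2 (3.72, SE 0.15) and ATF3 (3.70, SE 0.29), a stress-induced transcription factor. Depletion in untreated cells gave 2 calls among the 40, both lower, where 8.66% of all tested genes were called. Among them was TRIM22 (log2 −1.04, SE 0.27), whose mean was only 2.61 CPM. By the adjusted p alone 10 were higher and 7 lower, where 12.8% and 14.6% of all tested genes were. Treated shRNF113A cells against treated control cells gave 0 calls at 2-fold, with 19 lower by the adjusted p alone, against 21.8% of all tested genes, and 1 higher, PIDD1 (log2 0.75), a scaffold of caspase-2 activation. In the interaction 2 of the 40 were called, both lower, CDKN1A (log2 −1.25) and MDM2 (−1.11), the ubiquitin ligase that degrades p53, where 1.28% of all tested genes were called. By the adjusted p alone 10 were lower, against 2.27%. TRIM22, PIDD1 and the interactions of CDKN1A and MDM2 were singled out after their values were seen.

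Over the 12 libraries the members followed each other closely, with Pearson's r of log2(CPM + 1) from 0.869 between GDF15 and ZMAT3 to 0.997 between RRM2B and TP53I3. These correlations mostly carry the shared step from untreated to treated libraries. Among 9769 other genes that averaged 10 CPM or more, the most similar gene was NR1D1 for GDF15 (r = 0.9903), SLC35D1 for TP53INP1 (0.997), HES2 for SESN1 (0.997), DPYSL4 for FDXR (0.999) and ZNF436 for RRM2B (0.997). It was APOBEC3C for TP53I3 (0.998), DGKA for ZMAT3 (0.994), SESN2 for AEN (0.995), TIGAR for PHLDA3 (0.996) and MDM2 for SPATA18 (0.994). SESN2, TIGAR and MDM2 are themselves on the list of 40 p53 targets.

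Intronic reads were taken as the reads counted on the whole gene minus those on its exons, and the ratio of intronic to exonic reads was tested in 10984 genes. Cisplatin in control cells changed this ratio for 0 of the 10 genes by edgeR's quasi-likelihood test (1 at an unadjusted p under 0.05), with 18.4% of all genes called higher. With a replicate block 1 gene passed, GDF15, whose ratio was lower (log2 −0.77, SE 0.23, adjusted p = 0.0227 in edgeR's quasi-likelihood test). Without treated control replicate 2, 5 other genes passed, SESN1, FDXR, RRM2B, TP53I3 and PHLDA3, each with a higher ratio. Intronic reads themselves were more numerous upon Cisplatin. Intronic FDXR reads went from 3.05 ± 0.61 to 41.2 ± 11.9 CPM (SD, n = 3), and those of TP53I3 from 2.03 ± 0.49 to 28.7 ± 8.85 CPM (SD, n = 3).

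In shRNF113A cells 8 of the 10 genes had a higher ratio upon Cisplatin, with 67.0% of all genes called higher and a median log2 change of 0.79 against 0.76 over all genes. GDF15 (log2 −0.37, SE 0.28) and AEN (−0.12, SE 0.22) did not pass. Without untreated shRNF113A replicate 3, 5 of the 8 passed. In untreated cells 3 of the 10 genes had a higher ratio upon depletion, close to the 29.8% of all genes called higher. They were FDXR (log2 1.19, SE 0.21), AEN (1.00, SE 0.22) and GDF15 (0.81, SE 0.29). The median log2 change was 0.65 for the members and 0.47 for all genes. The count of members rose to 7 without treated control replicate 2 and to 6 without treated control replicate 3. Without replicate 2 of both control conditions the value of GDF15 was 0.54.

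Treated shRNF113A cells had a higher ratio than treated control cells for all 10 genes, where 84.0% of all genes were called higher. The median log2 change of the members was 1.15, and that of all genes 0.97. FDXR was among the higher changes (log2 1.69, SE 0.19, adjusted p = 1.3e-06 by edgeR's quasi-likelihood test), with 6.90, 6.10 and 11.2 intronic reads per 100 exonic reads in treated control cells and 25.1, 26.0 and 24.3 in treated shRNF113A cells. TP53INP1 differed from FDXR by less than its error (log2 1.62, SE 0.29) and went from 0.969, 0.599 and 1.66 to 2.85, 3.39 and 3.43 intronic per 100 exonic reads. SPATA18 had 14.4, 10.9 and 19.6 intronic per 100 exonic reads in treated control cells and 27.4, 30.6 and 25.9 in treated shRNF113A cells. The changes of TP53I3 (log2 0.89, SE 0.21), PHLDA3, SPATA18, AEN and ZMAT3 (1.07, SE 0.30) could not be ordered within their errors. The groups did not overlap for any of the 10 genes. The share of all genes without overlap was not counted, so this is not read as a trait of the members. Replicate 3 of the treated control cells was the highest of its group for each gene but ZMAT3. Without replicate 2 of both control conditions the change of every member was smaller and still passed. It then ranged from 0.61 for PHLDA3 to 1.51 for FDXR, with GDF15 at 0.81 and SESN1 at 1.01.

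TP53I3 had a lower exonic level in treated shRNF113A cells without a change of its intronic reads beyond their spread. Its ratio change (log2 0.89, SE 0.21) was near the median of all genes (0.97). Its exonic level was 432 ± 13.7 RPKM in treated control cells and 219 ± 12.4 RPKM in treated shRNF113A cells (SD, n = 3), while its intronic reads stood at 28.7 ± 8.85 and 26.2 ± 1.77 CPM, within the spread. FDXR had a lower exonic level in treated shRNF113A cells (153 ± 5.10 against 219 ± 10.9 RPKM) and more intronic reads (90.7 ± 0.39 against 41.2 ± 11.9 CPM). SESN1 had overlapping exonic levels (26.9 ± 1.56 and 27.3 ± 0.44 RPKM) with 19.6 ± 2.74 against 7.97 ± 3.94 intronic CPM. The interaction of Cisplatin and the shRNF113A construct on the ratio passed for 0 of the 10 genes in edgeR's quasi-likelihood test (1 at an unadjusted p under 0.05), with 3.61% of all genes called higher, and for 5 without treated control replicate 3. TP53INP1 and ZMAT3 had 0 to 7 intronic reads in each untreated library, so their ratios there were imprecise.

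**Figure D4:**
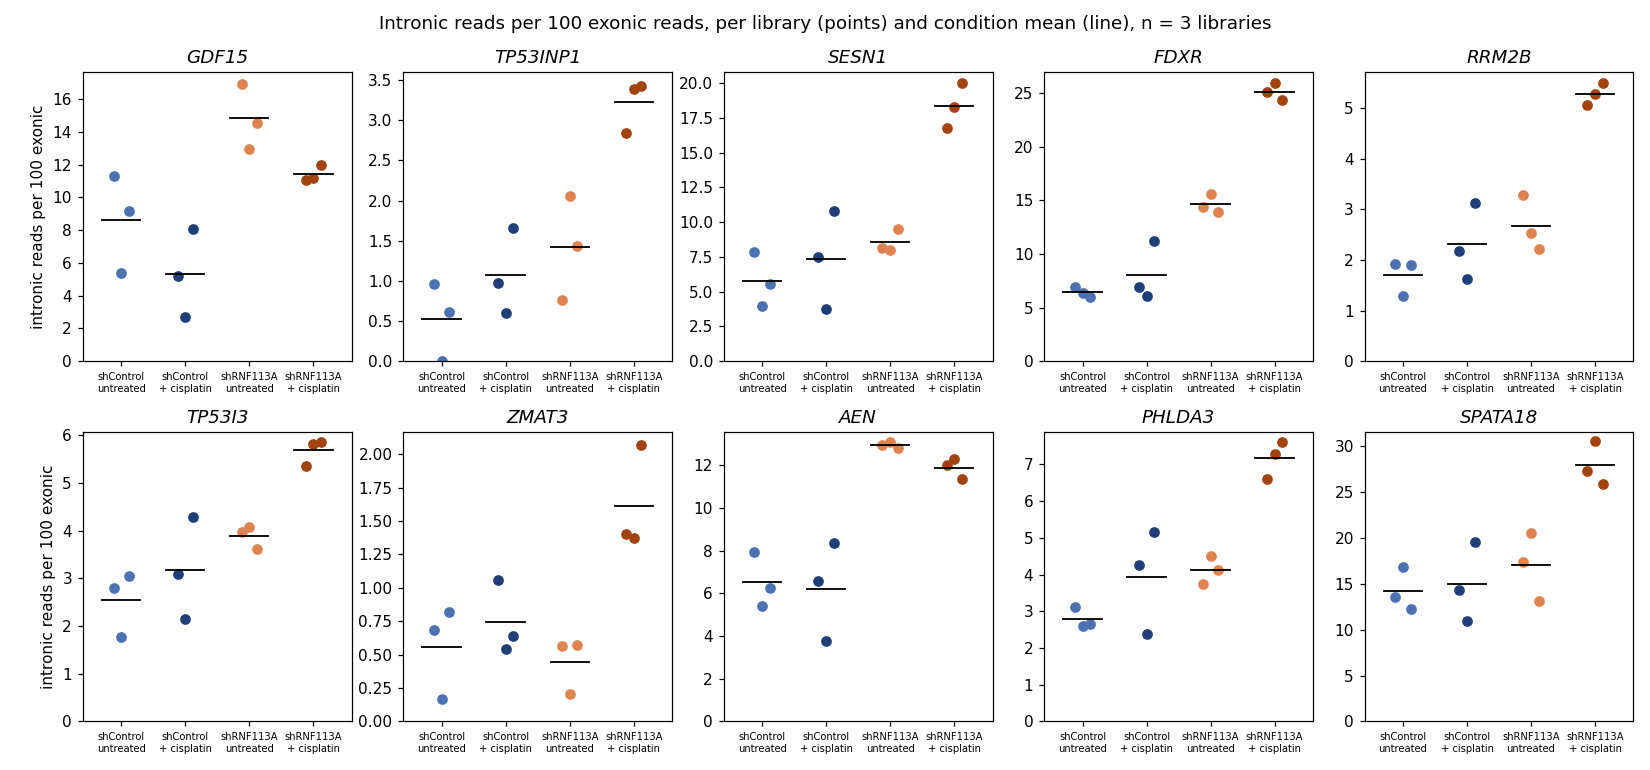
Intronic reads per 100 exonic reads for the 10 genes in the 12 libraries (linear axes from 0), with 3 points and a line at the mean for each condition. The treated shRNF113A libraries are the highest for 8 genes, while GDF15 and AEN are highest in untreated shRNF113A cells, and FDXR rises from 6.10 to 11.2 in treated control cells to 24.3 to 26.0.

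Individual splicing events were taken from the rMATS tables, where the 3 libraries of a condition are not named and are called a, b and c here. No retained intron and no skipped exon of the 10 genes was called in any of the 4 comparisons, a call being an adjusted p under 0.05 and inclusion levels at least 20 percentage points apart. Only 1 retained intron of a member had enough reads to be tested, in FDXR. The skipped exons tested numbered 62 upon Cisplatin in control cells and 62 in shRNF113A cells. There were 35 upon depletion in untreated cells and 73 between treated shRNF113A and treated control cells. They lay in SPATA18, FDXR, SESN1, TP53I3, RRM2B, ZMAT3 and TP53INP1, and many share an exon. The skipped exon event with the most reads, a TP53I3 exon on chromosome 2 from 24305755 to 24306022 with the upstream exon end at 24303901 and the downstream exon start at 24307059, had 0 or 1 skipping reads in each treated library. A second event of the same exon, with the downstream exon start at 24307601, had inclusion levels of 98.7 to 99.1%.

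In FDXR 3 events differed by the adjusted p alone between treated shRNF113A and treated control cells and were singled out after their values were seen. They are printed on the minus strand of hg19, the intron with its 2 end dinucleotides in capitals and the exons in capitals with 2 flanking intron bases in lower case.
FDXR retained intron, chr17:72860190-72860269: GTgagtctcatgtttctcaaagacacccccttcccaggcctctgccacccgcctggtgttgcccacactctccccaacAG
FDXR exon included less often, chr17:72860602-72860686: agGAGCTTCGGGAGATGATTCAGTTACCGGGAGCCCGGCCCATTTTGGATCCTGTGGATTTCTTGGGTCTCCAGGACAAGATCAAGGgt
FDXR exon included more often, chr17:72866073-72866225: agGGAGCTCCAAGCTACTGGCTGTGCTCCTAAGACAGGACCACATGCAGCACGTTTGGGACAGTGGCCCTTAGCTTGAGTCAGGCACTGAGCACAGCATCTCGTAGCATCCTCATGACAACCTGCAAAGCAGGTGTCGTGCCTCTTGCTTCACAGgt
The intron has 80 bases, 60% of them G or C, and begins and ends with the common GT and AG. It was retained in 1.82, 0.861 and 3.58% of treated control transcripts and in 5.93, 5.56 and 4.73% of treated shRNF113A transcripts (adjusted p = 5.5e-04 by edgeR's quasi-likelihood test), with 25.9% of 3552 introns passing the same limit. The 85-base exon is a coding exon in 7 annotated transcripts. Its event has the upstream exon end at 72860469 and the downstream exon start at 72860946. There it was included at 99.4, 99.0 and 99.1% in treated control cells and at 96.7, 96.7 and 97.2% in treated shRNF113A cells (adjusted p = 0.00371 by edgeR's quasi-likelihood test). Another event of this exon, with the downstream exon start at 72861841, was not among those that passed. The 153-base exon, which is not in the authors' table of protein-coding exons and is in 1 transcript of the newer Gencode v44 annotation without being coding there, was included at 1.79, 1.08 and 3.07% against 7.60, 7.74 and 5.74% (adjusted p = 2.3e-04 by edgeR's quasi-likelihood test). Among all skipped exons 0.722% of 59568 passed the same limit. In untreated cells the 3 events did not pass, and the 153-base exon then rested on a mean of 42 reads per library.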

How the data were processed

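RNA sequencing libraries of 12 A549 samples formed the series. The authors prepared stranded mRNA libraries and aligned read pairs to hg19 with STAR 2.5.2b. The deposited counts are raw read pairs per gene, and the column of the gene's own strand was used. The authors counted reads on exons and on whole genes with HTSeq, and deposited rMATS tables with reads of inclusion and skipping forms. The processing notes also name bcl2fastq 2.17, cutadapt, Bowtie2, Cufflinks and Cuffdiff.

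Counts were scaled by TMM, filtered with filterByExpr and tested with edgeR 4.0.16 in R 4.3.3 (quasi-likelihood test, Benjamini-Hochberg adjustment), with Cisplatin, depletion and their interaction over all 12 libraries. Intronic reads were tested against exonic reads, and inclusion against skipping reads, with a term for each library. Genes needed a mean of 10 intronic and 10 exonic reads, and events a mean of 20 reads. Each test was run on simulated data. Standard errors are the absolute log2 fold change divided by the square root of the F statistic. Replicates are separate samples by their labels. Read counts carry no molecular identifiers.

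The members and lists were chosen with earlier results of these data known. Named genes are the 10 members, RNF113A, the gene most correlated with each member, and the 2 largest rises and falls upon Cisplatin among 40 other p53 targets with a mean of at least 10 CPM. Named events are those called, or else the 1 event per category with the most reads. Outside these rules, 2 FDXR exons, another event of 1 of them, a second event of the TP53I3 exon, and TRIM22, PIDD1 and the interactions of CDKN1A and MDM2 were named after their values were seen. The alternatives were unstranded counts, library size or DESeq2 size factors in place of TMM, other filters, DESeq2 1.42.0, a replicate block, fits of 6 libraries, other limits for ratios and events, and the omission of libraries.

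To check whether replicate numbers pair the libraries, each library's deviation from its condition mean was correlated over 10948 genes. In control cells, untreated against treated, equal numbers gave r = 0.639, 0.734 and 0.487, and these libraries were read as pairs. The main tests did not use this pairing, and a replicate block was run only as an alternative. The unlike numbers 1 and 3 gave 0.572 and 0.53, so the values set replicate 2 apart without showing which of 1 and 3 belong together. In the other comparisons at least 1 pair fell below 0.1. The pairing rests on these values alone. The site search of 1 gene and the values of 1 other gene are not reported here. Coordinates of the deposited annotation were compared with the GRCh37 reference, where 17814 of 17820 shared genes overlapped. Tables of other splicing categories, the merged transcript annotation and the columns of the authors' own comparisons (p-values, FDR and differences of inclusion level) were not used here. Figures were drawn with matplotlib 3.10.9 in Python 3.11.15.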

Additional observations from a re-analysis of the deposited data

Results flagged for a closer look

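For 3 genes the Cisplatin change differed between shRNF113A and control cells by the interaction test over all 12 libraries (edgeR's quasi-likelihood test). The difference of the log2 fold changes was −1.13 for SPATA18 (SE 0.13, adjusted p = 0.0046), −0.71 for TP53I3 (SE 0.10, adjusted p = 0.00856) and −0.40 for RRM2B (SE 0.10, adjusted p = 0.0376). For SPATA18 both directions contributed, with higher levels of shRNF113A cells when untreated and lower levels when treated, and no overlap of the libraries in either condition. The value for RRM2B missed the limit without TMM scaling (adjusted p = 0.0527), without the filter on low counts (0.0547) and in 8 of 12 fits that left out 1 library, in all of which it stayed below 0 (edgeR's quasi-likelihood test). With a replicate block its adjusted p was 0.05 when rounded, just inside the limit. Groups of 3 libraries are too small for a test of single outlying libraries, which was not made.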

How the results depend on the processing

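All 10 genes were called higher upon Cisplatin in both arms, and in the model without interaction, under every alternative run. Between treated shRNF113A and treated control cells 1 gene was called with DESeq2 and 1 with DESeq2 size factors. When single libraries were left out, 0 to 2 were called. By the adjusted p alone, depletion in untreated cells gave 2 genes with only the 6 libraries of the comparison, 0 with a replicate block within the 6 libraries, 3 to 6 when 1 library was left out, and 8 without replicate 2 of both control conditions. The interaction gave 2 to 5 genes by the adjusted p when 1 library was left out and 7 without replicate 2 of both control conditions. The replicate block over all 12 libraries changed the number of members whose intronic to exonic ratio changed to 1 for Cisplatin in control cells and to 5 for depletion in untreated cells, and moved no other count of members by more than 1.5 times. Leaving out 1 library gave ratio counts of 0 to 5 for Cisplatin in control cells, 5 to 8 for Cisplatin in shRNF113A cells, 2 to 7 for depletion in untreated cells and 0 to 5 for the interaction. Without replicate 2 of both control conditions the count for Cisplatin in control cells was 2, with a lower ratio of GDF15 (log2 −0.64) and a higher ratio of PHLDA3 (0.71). The causes of these changes were not tested.

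Values near 0 changed sign. The SESN1 difference between treated shRNF113A and treated control cells was −0.0114 with unstranded counts, −0.0271 with DESeq2 size factors and −0.0272 with DESeq2. It was −0.0027 without a filter, −0.00502 without replicate 2 of both control conditions, and −0.0499 to 0.0105 when 1 library was left out. The TP53INP1 depletion value in untreated cells was 0.00498 without TMM scaling, 0.12 without replicate 2 of both control conditions and −0.10 to 0.12 when 1 library was left out. When 1 library was left out, depletion in untreated cells ranged from −0.0739 to 0.25 for FDXR and from −0.32 to 0.0709 for GDF15, ZMAT3 in treated cells from −0.33 to 0.0323, and the AEN interaction from −0.14 to 0.19. Without replicate 2 of both control conditions, FDXR was at −0.0742 in untreated cells, and the interaction was 0.29 for AEN and 0.0014 for PHLDA3. No event of a member was called under any alternative of the splicing tests. No paired analysis was possible for the splicing tables because their libraries carry no numbers.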
